A study of Mus musculus with 4 samples.

Results

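The genes of basement membrane components and of their cell surface receptors were compared between PSC-derived SG placodes and embryonic mouse SMGs. The group was a list of 45 genes, taken by symbol: 10 laminin chains, 6 collagen IV chains, 4 nidogens and heparan sulfate proteoglycans, collagens XV and XVIII, nephronectin with 3 Fraser complex genes, dystroglycan, and 18 integrin subunits. Each symbol matched 1 row of the table, which listed 24771 features (22036 Ensembl genes and 2735 assembled loci that carry no gene symbol). Levels were RNA levels in FPKM, fragments scaled to transcript length and to the mapped fragments of a sample, so they were scaled per length and could be set side by side between genes.

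The basement membrane is a thin sheet of extracellular matrix under epithelia and around muscle fibres, nerves and vessels. Laminins are trimers of an alpha, a beta and a gamma chain that assemble into one network, collagen IV trimers form another, and nidogens and the proteoglycans perlecan and agrin connect them. Cells hold on to the sheet through integrins, which are pairs of an alpha and a beta subunit, and through dystroglycan. In the embryonic salivary gland, the basement membrane lies between the branching epithelium and the mesenchyme and is remodelled as clefts and buds form.

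The placodes came from 1 mouse embryonic stem cell line and were collected on day 10 of differentiation (2 samples). Cells were seeded at 3000 per well, growth factor reduced Matrigel was present at 2% from day 1, and BMP4 (2 ng/ml) was added on day 3. Day 4 brought bFGF (25 ng/ml) with RA (1 µM), and FGF10 (200 ng/ml) was present from day 6. The SMGs were from E12.5 mouse embryos (2 samples). Their strain, their dissection and the number of embryos per sample were not given in the sources used here, and their labels repeat the culture text of the stem cells. Matrigel is an extract of a mouse tumour that contains laminin, collagen IV, nidogen and perlecan as proteins, and the protein content of the gel was not measured by these RNA values. Nothing said that the 2 samples of a group came from separate cultures or animals, so p-values measure only the spread between these samples, which may be technical.

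The FPKM values summed to between 361963 and 384773 per sample, and between 12636 and 12807 features per sample reached an FPKM of 1. Depth is unknown because read counts could not be recovered from the values. The share of mitochondrial transcripts in the summed FPKM was 5.93% and 5.88% for the placodes and 10.7% and 8.07% for the SMGs. The labelled tissues were checked against marker lists. Of 9 salivary epithelial markers, 7 were lower in the placodes and 2 did not pass the test. Their summed FPKM was 58.6 and 64.4 in the placodes against 625 and 597 in the SMGs. Most of the placode sum came from the 2 that did not pass, Krt8 and Krt18. Krt8 was at 34.4 and 35.6 FPKM in the placodes against 36.1 and 28.3 in the SMGs, and Krt18 at 20.8 and 24.5 against 20.0 and 15.4. The basal keratins Krt5, Krt14 and Krt15 were listed at 0 in both placode samples. All 8 mesenchyme markers were lower (sums of 212 and 208 against 2107 and 2053), as were all 8 endothelial markers (15.2 and 13.5 against 169 and 176). All 6 neural progenitor markers were higher (699 and 732 against 51.1 and 45.4), as were all 6 neuronal markers (910 and 945 against 85.0 and 76.2). Smaller lists had sums of 43.7 and 42.9 against 83.1 and 77.3 for 6 mural cell markers, 0.845 and 0.819 against 69.9 and 48.9 for 6 skeletal muscle markers, 2.45 and 2.95 against 13.7 and 10.9 for 6 leukocyte markers, and 10.2 and 10.8 against 48.6 and 48.7 for 10 extraembryonic endoderm markers. Of these lists, 4 of 5 tested mural, 4 of 4 muscle, 3 of 3 leukocyte and 4 of 4 endoderm genes were lower. Notch3, a mural gene, was higher. Of the 6 untested endoderm genes, Foxa2, Gata4, Ttr, Amn and Cubn were higher in both placode samples than in either SMG sample. How many of all features separated in this way was not counted. Except for Foxa2, these genes were near 0, with placode means of 0.147 (Gata4), 0.133 (Ttr), 0.695 (Amn) and 0.228 (Cubn) FPKM. Foxa2 was at 1.32 and 1.98 FPKM in the placodes against 0.0296 and 0 in the SMGs, and Afp overlapped between the groups. Many of these markers reached the minimum for testing only through the group where they were high: 5 of the 9 tested epithelial, 6 of 8 endothelial, 2 of 5 mural, 4 of 4 muscle, 2 of 3 leukocyte, 2 of 4 endoderm and 3 of 6 neural progenitor genes. Myog, Myf5 and Chrna1 of the muscle list and Adgre1, Tyrobp and Spi1 of the leukocyte list were at 0 in both placode samples. The part of these cell types in the results that follow was not tested. In bulk samples, fewer cells of a type and less RNA per cell cannot be told apart.

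Most basement membrane and integrin genes had less RNA in the placodes than in the SMGs. Together, the 45 genes took up 0.104% and 0.108% of all FPKM in placode samples 1 and 2, against 0.3723% and 0.3803% in SMG samples 1 and 2. Differences were tested with limma on log2(FPKM + 1) over the 13193 features with a mean FPKM of at least 1, with Benjamini-Hochberg adjustment and a threshold of 0.05, and are given as the placode mean minus the SMG mean. Of the 45 genes, 35 reached this minimum and 10 did not. Of the 35, 30 were lower in the placodes and 2 were higher, Itgb8 and Agrn, while Lama1, Fras1 and Dag1 did not pass the test. Over all tested features, 40.4% were lower and 35.7% were higher. A difference of at least 2-fold was present for 26 genes that were lower and 1 that was higher, against 15.2% and 14.1% of all tested features. The median log2 fold change was -1.72 for the 35 genes and -0.05 over all tested features. Lama2, Col4a6, Frem2, Itga2, Itga8, Itga4 and Itgb4 reached the minimum only through their level in the SMGs, so they could enter the test only by differing. With 2 samples a group, 0.333 is the smallest p-value that an exact permutation test can reach. The labels name neither a batch nor a date, so batch and group cannot be told apart.

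**Figure D1:**
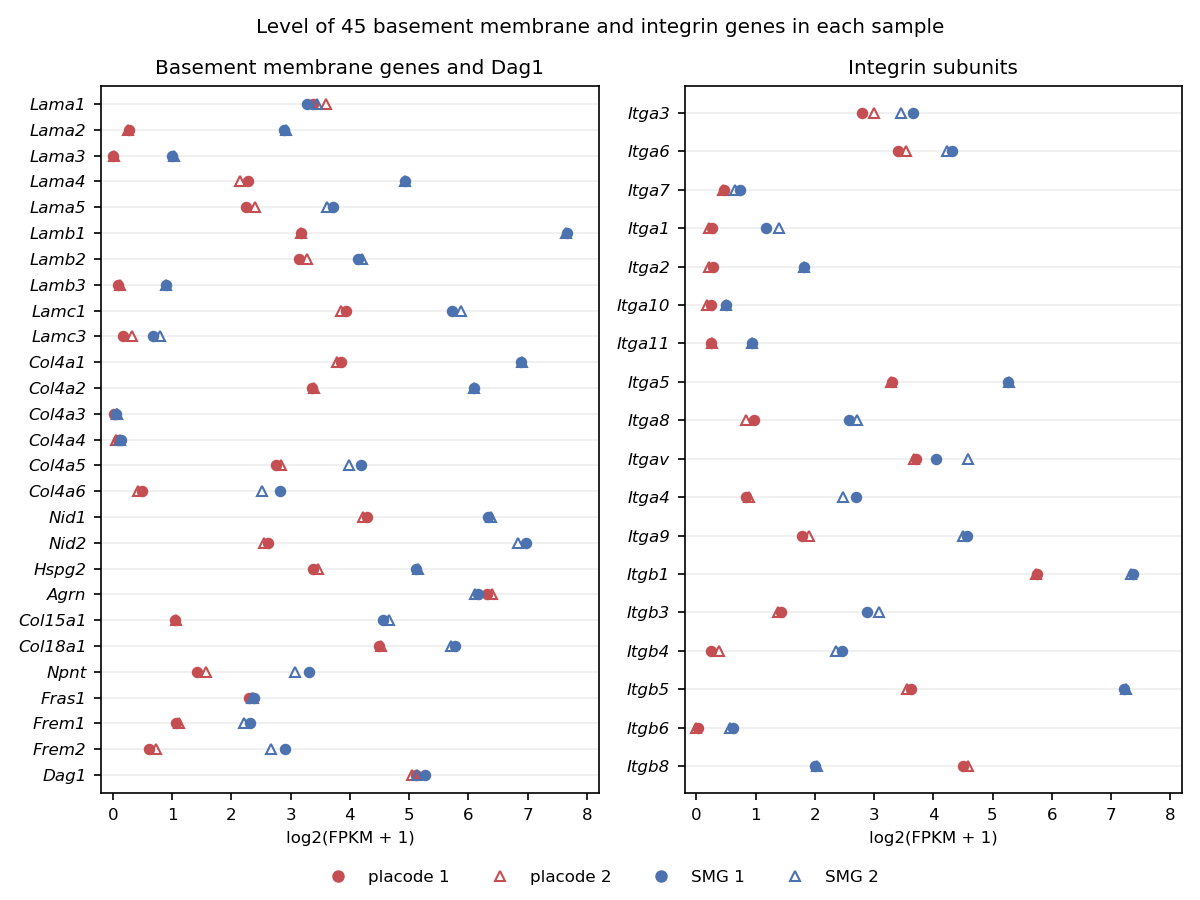
Level of each of the 45 genes, as log2(FPKM + 1) on the horizontal axis, in placode samples 1 and 2 (red) and SMG samples 1 and 2 (blue); filled circles are sample 1 and open triangles sample 2 of each group. Lamb1, Nid2 and Itgb5 lie far apart between the groups with the SMGs higher, Itgb8 lies apart with the placodes higher, and the samples of Lama1, Fras1 and Dag1 lie together.

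Among the laminin alpha chains, the difference of Lama1 did not pass the test, and the 3 other chains that could be tested were lower in the placodes. Lama2 reached the minimum only through the SMGs, so it could enter the test only by differing. Over all tested features, 40.4% were lower. Lama1 encodes the chain of early embryonic and young epithelial basement membranes. It stood at 9.41 and 11.0 FPKM in the placodes and at 8.64 and 9.83 in the SMGs. The groups overlapped, and the difference of 0.13 in log2 units (standard error 0.10, limma adjusted p = 0.282) did not pass the test. Lama4, a chain of vessel and mesenchymal basement membranes, was at 3.87 and 3.40 against 29.6 and 29.6. The SMGs were 8.14-fold higher in mean FPKM (log2 fold change -2.72, adjusted p = 8.97e-07). Lama5, the chain most widely used in epithelial basement membranes, was at 3.75 and 4.24 against 12.2 and 11.3, a log2 fold change of -1.35. Lama2, the chain of muscle and peripheral nerve, was at 0.210 and 0.198 against 6.43 and 6.55. Lama3, a chain of the epithelial laminin that anchors hemidesmosomes, was at 0 and 0.0128 against 1.00 and 1.05 and fell short of the minimum. In each of these 4 chains, both SMG samples were above both placode samples, and how many of all features separated in this way was not counted.

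These differences left the laminin alpha chains in other proportions. Lama1 made up 56.5% ± 2.74 of the summed FPKM of the 5 alpha chains in the placodes against 15.9% ± 1.36 in the SMGs (SD, n = 2 each). Lama4 had 20.2% ± 3.16 in the placodes against 50.9% ± 0.297 in the SMGs (SD, n = 2 each), so the leading alpha chain was Lama1 in one group and Lama4 in the other. The share of Lama5 was 22.1% in the placodes and 20.2% in the SMGs, and that of Lama2 was 1.13% and 11.2%. The exact permutation test gave p = 0.333 for Lama1 and Lama4, the smallest value that 2 samples a group allow.

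Lamb1 had the lowest log2 fold change of the 35 tested genes on log2(FPKM + 1), although with a pseudocount of 0.001 Lama2 was lower (-4.99 against -4.64). It encodes the beta chain of most embryonic laminins (ENSMUSG00000002900, chromosome 12 of GRCm38 from 31265234 to 31329644). It stood at 7.98 and 8.08 FPKM in the placodes and at 201 and 199 in the SMGs, where it was the most abundant of the 45 genes. The log2 fold change was -4.48 (standard error 0.05, adjusted p = 7.12e-08), which was number 35 from the lowest among the 13193 tested features. Lamb2, the beta chain of neuromuscular, kidney and vessel basement membranes, was at 7.87 and 8.71 against 16.7 and 17.5 (log2 fold change -0.96, adjusted p = 5.82e-05). Lamb1 and Lamb2 thus stood at nearly the same level in the placodes, with shares of 49.0% ± 1.61 and 50.5% ± 1.52 (SD, n = 2) of the 3 beta chains, and at 91.8% ± 0.300 and 7.83% ± 0.297 (SD, n = 2) in the SMGs. The exact permutation p was 0.333 for both shares. Lamb3, the beta chain of the hemidesmosomal laminin, was at 0.0627 and 0.0885 against 0.859 and 0.861 and was not tested.

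Lamc1, the gamma chain shared by most laminins, was at 14.2 and 13.3 FPKM in the placodes and 52.0 and 57.5 in the SMGs. The SMGs were 3.97-fold higher (log2 fold change -1.91, adjusted p = 2.11e-06). Lamc3, a gamma chain of restricted expression, was below 0.73 in every sample and was not tested. Set against the gamma chains of the same sample, the summed alpha chains gave ratios of 1.20 and 1.39 in the placodes and 1.10 and 1.00 in the SMGs. The summed beta chains lay further apart, at 1.11 and 1.24 in the placodes and 4.16 and 3.74 in the SMGs. The ratio of Lamb1 to Lamc1 was 0.561 and 0.605 against 3.87 and 3.47. The groups did not overlap in any of these ratios, which were given no test.

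**Figure D2:**
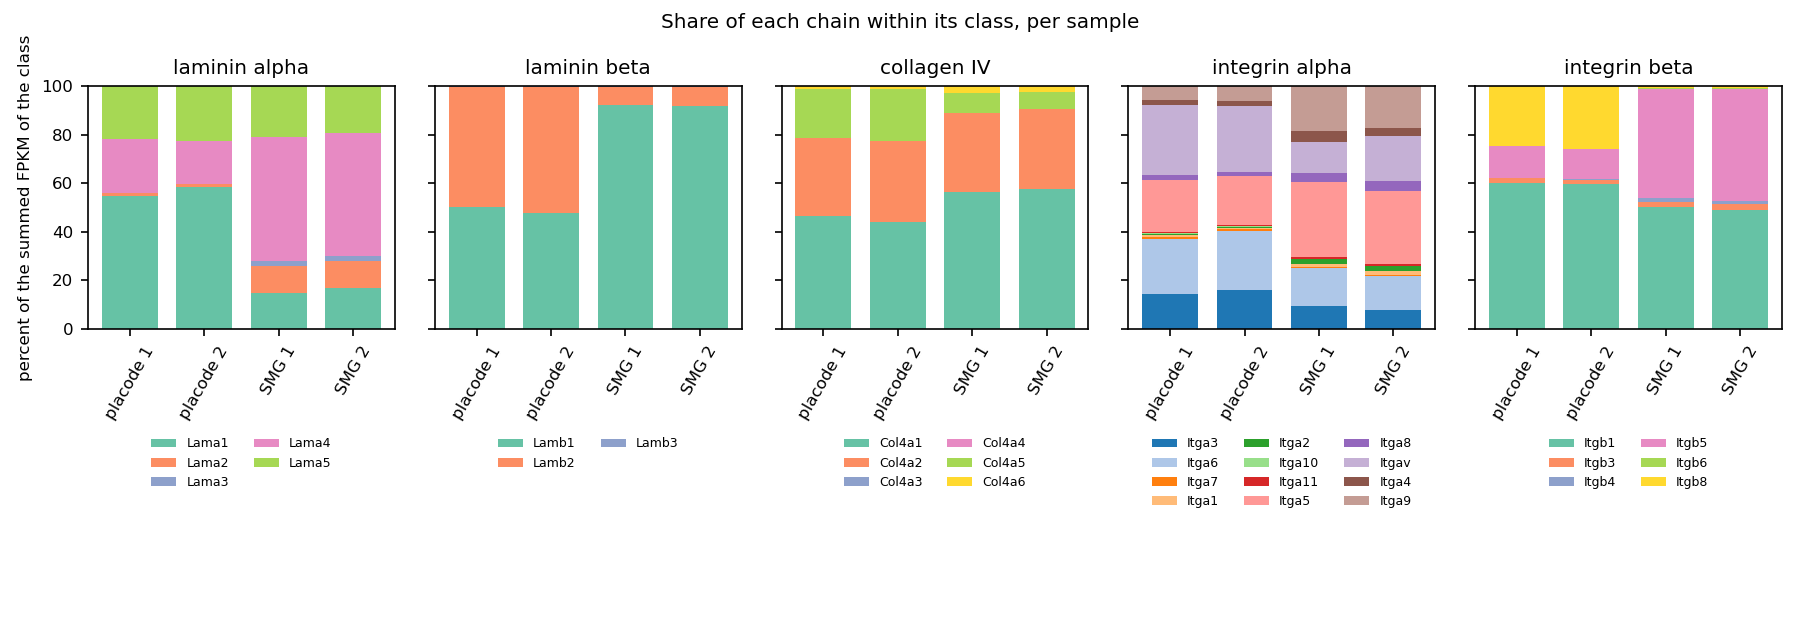
Share of each chain in the summed FPKM of its class, in percent on the vertical axis, with 1 stacked bar for each placode and SMG sample and 1 panel each for laminin alpha, laminin beta, collagen IV, integrin alpha and integrin beta chains. Lama1 leads the alpha chains in the placodes and Lama4 in the SMGs, Lamb1 takes 91.8% of the beta chains in the SMGs, and Itgb5 takes 45.8% of the beta subunits in the SMGs while Itgb8 takes 25.4% in the placodes.

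The stretch before the start of Lamb1 is shown because it led the 45 genes in the SMGs and had the lowest log2 fold change on log2(FPKM + 1), and that of Agrn because its RNA was the most abundant of the 45 in the placodes and was nearly equal in the SMGs. Both are RefSeq sequences of GRCm38.p6, given 5′ to 3′ on the strand of the gene. Capitals mark the GC box GGGCGG, the site letters of Sp family factors, and the CCAAT box CCAAT, on either strand. Lamb1 (chr12:31265043-31265233, plus strand) had 2 GC boxes and 1 CCAAT box in 191 bases that end at the annotated gene start. Agrn (chr4:156197489-156197738, minus strand) had 12 GC boxes in 250 bases, counting a pair that overlap, with a GC content of 83.6%.
Lamb1: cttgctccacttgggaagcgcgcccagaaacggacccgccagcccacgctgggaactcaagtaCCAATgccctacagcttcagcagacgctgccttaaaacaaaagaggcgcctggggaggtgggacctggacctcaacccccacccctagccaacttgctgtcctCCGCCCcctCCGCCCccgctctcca
Agrn: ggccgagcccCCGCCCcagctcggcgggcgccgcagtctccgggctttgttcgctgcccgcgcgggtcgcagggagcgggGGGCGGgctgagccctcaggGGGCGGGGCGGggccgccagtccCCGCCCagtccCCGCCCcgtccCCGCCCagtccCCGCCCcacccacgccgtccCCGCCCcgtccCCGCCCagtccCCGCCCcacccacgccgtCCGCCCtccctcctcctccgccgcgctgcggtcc
A window of 250 bases was found for 33 of the 45 genes, taken at the 5′-most start of each. The windows of comparison held every listed start of all genes, so the shares were not drawn alike. The GC box was present in 16 of these 33 (48.5%) and in 32.7% of 32817 promoter windows of the same length, the CCAAT box in 9 (27.3%, against 33.8%), and the TATA box TATAAA in 0 of 33 (against 12.4%). These matches describe the letters alone.

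Collagen IV genes were lower in the placodes in all 4 chains that could be tested, against 40.4% of all tested features. Col4a6 reached the minimum only through the SMGs, so it could enter the test only by differing. Col4a1 and Col4a2 encode the chains of the collagen IV trimer found in nearly every basement membrane. Col4a1 was at 13.4 and 12.7 FPKM in the placodes against 117 and 119 in the SMGs (log2 fold change -3.08, standard error 0.05, adjusted p = 1.94e-07). Col4a2 was at 9.22 and 9.52 against 67.4 and 67.1 (log2 fold change -2.72, adjusted p = 2.57e-07). Both were thus several times higher in each SMG sample than in either placode sample, by 9.03-fold and 7.18-fold in mean FPKM. These genes lie head to head on chromosome 8, and their annotated starts overlap by 22 bases. The shared stretch, chr8:11312805-11312826 of GRCm38.p6 on the plus strand, is shown because its bases belong to exons of both genes. It holds 1 GC box, which is left in lower case here.
Col4a1 and Col4a2 shared stretch: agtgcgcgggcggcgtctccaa

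Col4a5 and Col4a6 encode chains of collagen IV networks of smooth muscle and certain epithelia, and Col4a5 also joins Col4a3 and Col4a4 in kidney and lung. Col4a5 was at 5.72 and 6.15 FPKM in the placodes and 17.2 and 14.8 in the SMGs (log2 fold change -1.29). Col4a6 was at 0.409 and 0.346 against 6.03 and 4.74 (log2 fold change -2.21). The ratio of Col4a5 to Col4a6 was 14.0 and 17.8 in the placodes and 2.86 and 3.12 in the SMGs. The pair also lies head to head, with 1308 bases between their starts on chromosome X. Col4a3 and Col4a4, another such pair with a gap of 71 bases, were at or below 0.101 in every sample and were not tested. Within collagen IV, Col4a1 made up 45.3% ± 1.67 in the placodes against 57.1% ± 1.01 in the SMGs (SD, n = 2 each) (exact permutation p = 0.333). Col4a2 had 32.5% in both, and Col4a5 had 20.6% and 7.73%.

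Of the linkers, both nidogens and perlecan were lower in the placodes and agrin was slightly higher. Nid2 (ENSMUSG00000021806, chromosome 14 from 19751265 to 19811787) followed Lamb1 in log2 fold change on log2(FPKM + 1), and both followed Lama2 with a pseudocount of 0.001. It stood at 5.15 and 4.88 FPKM in the placodes and at 124 and 113 in the SMGs, a 23.7-fold higher mean in the SMGs (log2 fold change -4.31, standard error 0.07, adjusted p = 1.66e-07). An exon of Nid2 shares bases with Rtraf on the other strand, so its reads may not all be its own. Nid1, which encodes the other nidogen, was at 18.5 and 17.7 against 79.2 and 82.0 (log2 fold change -2.10, adjusted p = 5.5e-07). Nid1 was thus the more abundant nidogen in the placodes and Nid2 in the SMGs, with Nid2 to Nid1 ratios of 0.278 and 0.276 against 1.56 and 1.38.

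Hspg2, which encodes perlecan, was at 9.36 and 10.1 FPKM in the placodes and 33.9 and 34.7 in the SMGs (log2 fold change -1.72, adjusted p = 2.13e-06). Agrn (ENSMUSG00000041936, chromosome 4 from 156165290 to 156197488) encodes agrin, the proteoglycan that clusters acetylcholine receptors at the nerve-muscle synapse and binds laminin and dystroglycan. It stood at 78.8 and 83.6 FPKM in the placodes and at 70.6 and 68.6 in the SMGs. The groups did not overlap, but the placode mean was only 1.17-fold higher (log2 fold change 0.22, standard error 0.05, adjusted p = 0.00854). Agrn did not pass the test without placode replicate 2 (log2 fold change 0.18, adjusted p = 0.0611). Agrn exceeded Hspg2 by a ratio of 8.42 and 8.31 in the placodes and of 2.08 and 1.98 in the SMGs.

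Collagens XV and XVIII carry heparan or chondroitin sulfate chains and border basement membranes on their stromal side or within the sheet. Col15a1 was at 1.07 and 1.10 FPKM in the placodes and 22.7 and 24.4 in the SMGs (log2 fold change -3.56, standard error 0.09, adjusted p = 5.22e-07). Col18a1, the source of endostatin, was at 21.5 and 22.1 against 53.9 and 51.4 (log2 fold change -1.24). Col18a1 was the more abundant of the pair in every sample, and the SMG means were 21.7-fold higher for Col15a1 and 2.42-fold higher for Col18a1.

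Nephronectin and the Fraser complex are basement membrane proteins of epithelial and mesenchymal borders. Npnt encodes nephronectin, the main ligand of the integrin with the Itga8 subunit. It was at 1.67 and 1.97 FPKM in the placodes and 8.95 and 7.37 in the SMGs (log2 fold change -1.70, adjusted p = 3.93e-05). Itga8 was at 0.960 and 0.789 against 4.97 and 5.58 (log2 fold change -1.74), so ligand and receptor subunit were both lower. Fras1, Frem1 and Frem2 encode the proteins of the Fraser complex, which stabilise one another in the sheet. Fras1 was at 3.90 and 4.15 against 4.22 and 4.08, and the groups overlapped (log2 fold change -0.04, adjusted p = 0.74). Frem1 was at 1.08 and 1.17 against 3.98 and 3.61 (log2 fold change -1.17), and Frem2 was at 0.520 and 0.649 against 6.52 and 5.33 (log2 fold change -2.12). The ratio of Fras1 to Frem2 was 7.50 and 6.40 in the placodes and 0.647 and 0.766 in the SMGs.

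Dag1 encodes dystroglycan, the laminin and agrin receptor that links the sheet to the actin cytoskeleton through dystrophin or utrophin. It stood at 33.7 and 32.2 FPKM in the placodes and at 37.5 and 34.2 in the SMGs. The placode values were just under those of the SMGs, and the difference of -0.12 in log2 units (standard error 0.06, adjusted p = 0.129) did not pass the test. Dag1 was the third most abundant of the 45 genes in the placodes, after Agrn and Itgb1.

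**Figure D3:**
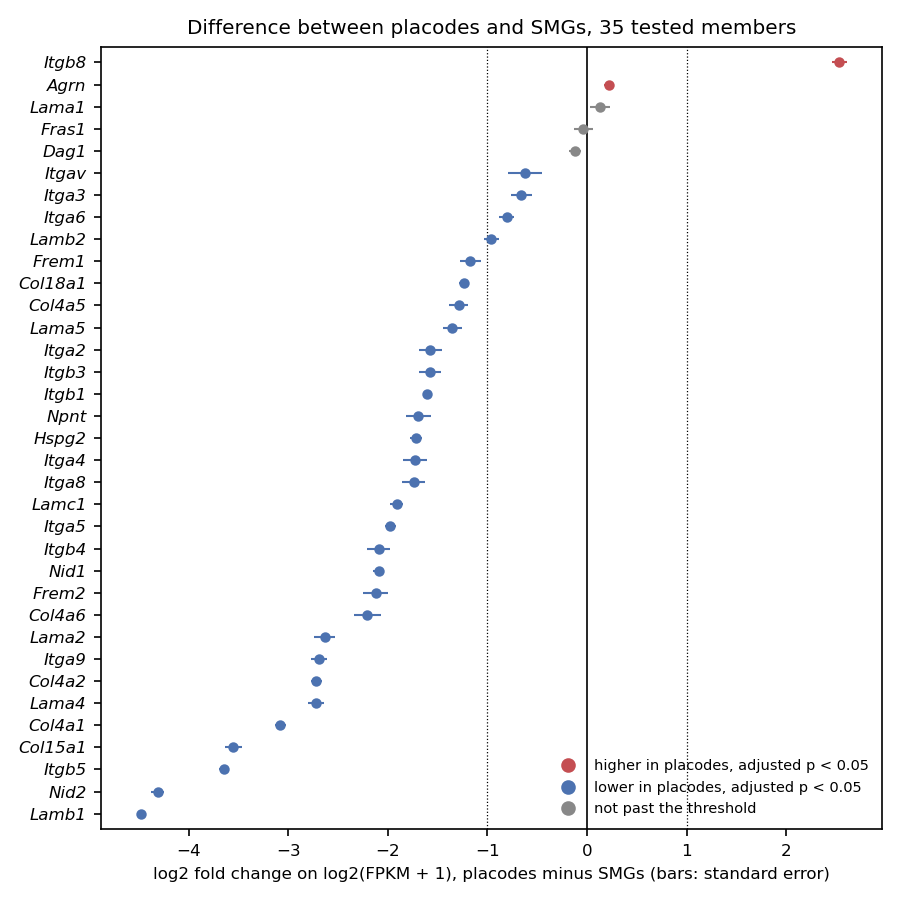
Log2 fold change on log2(FPKM + 1), placodes minus SMGs, on the horizontal axis for the 35 genes that could be tested, with bars for the standard error; red is higher and blue is lower in the placodes at a limma adjusted p below 0.05, grey did not pass, and dotted lines mark a 2-fold difference. Values run from -4.48 for Lamb1 to 2.53 for Itgb8, and only Itgb8 and Agrn are red.

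Among the integrin beta subunits, Itgb8 was higher in the placodes and the 4 other subunits tested were lower. Itgb4 reached the minimum only through the SMGs, so it could enter the test only by differing. Over all tested features, 40.4% were lower and 35.7% were higher. Itgb8 (ENSMUSG00000025321, chromosome 12 from 119158022 to 119238802) pairs with Itgav alone, and this receptor activates latent TGF-beta and is made by neural progenitors and glia among other cells. It stood at 21.8 and 23.0 FPKM in the placodes and at 3.00 and 3.08 in the SMGs. The placode mean was 7.36-fold higher (log2 fold change 2.53, standard error 0.08, adjusted p = 9.84e-07), number 512 from the highest among the tested features. The neural progenitor and neuronal marker lists, at 699 and 732 and at 910 and 945 in the placodes against 51.1 and 45.4 and 85.0 and 76.2 in the SMGs, moved the same way, and their part in this difference was not tested. Itgb5 (ENSMUSG00000022817, chromosome 16 from 33829665 to 33949338), another partner of Itgav and a receptor for vitronectin, was at 11.3 and 10.8 against 148 and 151. Each SMG sample was over 10 times either placode sample, and the log2 fold change was -3.64 (standard error 0.05, adjusted p = 1.36e-07). The ratio of Itgb8 to Itgb5 was 1.92 and 2.13 in the placodes and 0.0203 and 0.0203 in the SMGs.

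Itgb1, the common partner of most alpha subunits, was the most abundant integrin gene in every sample. It was at 52.9 and 52.4 FPKM in the placodes and 165 and 160 in the SMGs (log2 fold change -1.61, standard error 0.05, adjusted p = 8.51e-07). Its share of the summed beta subunits was 59.9% ± 0.487 in the placodes against 49.7% ± 0.977 in the SMGs (SD, n = 2 each) (exact permutation p = 0.333). The share of Itgb5 was 12.6% in the placodes and 45.8% in the SMGs, and that of Itgb8 was 25.4% and 0.929%. Itgb3, a subunit of platelets, osteoclasts and vessels, was at 1.69 and 1.59 against 6.32 and 7.46 (log2 fold change -1.58). Itgb4, which pairs with Itga6 in hemidesmosomes, was at 0.183 and 0.307 against 4.49 and 4.14 (log2 fold change -2.10). Itgb6, an epithelial partner of Itgav, was at 0.0127 and 0 against 0.527 and 0.481 and was not tested.

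The stretches before the starts of Itgb1 and Itgb5 are shown because these were the leading beta subunits of the SMGs and differed by unequal amounts. They are RefSeq sequences of GRCm38.p6 on the plus strand, with GC boxes in capitals. Itgb1 (chr8:128685404-128685653) had 1 GC box, Itgb5 (chr16:33829415-33829664) had 3, and neither had a CCAAT box or a TATA box in these letters.
Itgb1: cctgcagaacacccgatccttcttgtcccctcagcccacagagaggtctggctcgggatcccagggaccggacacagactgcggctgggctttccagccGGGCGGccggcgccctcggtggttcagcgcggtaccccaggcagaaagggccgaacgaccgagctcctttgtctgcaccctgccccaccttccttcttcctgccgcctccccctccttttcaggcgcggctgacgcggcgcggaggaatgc
Itgb5: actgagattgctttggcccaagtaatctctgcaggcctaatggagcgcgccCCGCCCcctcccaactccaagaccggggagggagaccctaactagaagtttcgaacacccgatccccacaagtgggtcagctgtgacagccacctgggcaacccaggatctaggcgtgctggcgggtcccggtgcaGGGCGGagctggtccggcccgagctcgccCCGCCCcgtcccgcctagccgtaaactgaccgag

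All 8 integrin alpha subunits that could be tested were lower in the placodes, with log2 fold changes on log2(FPKM + 1) from -2.69 for Itga9 to -0.62 for Itgav. Itga2, Itga4 and Itga8 reached the minimum only through the SMGs, so they could enter the test only by differing. Over all tested features, 40.4% were lower. Of the laminin receptors, Itga6 was at 9.59 and 10.6 FPKM in the placodes and 19.0 and 17.8 in the SMGs (log2 fold change -0.81, adjusted p = 0.000122). Itga3 was at 5.95 and 6.98 against 11.6 and 9.94 (log2 fold change -0.66, adjusted p = 0.00183). Neither reached a 2-fold difference. Itga7, the laminin receptor of muscle, was at 0.379 and 0.362 against 0.662 and 0.570 and was not tested.

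The RGD-binding subunits recognise the Arg-Gly-Asp sequence of fibronectin, vitronectin and nephronectin. Itga5, the fibronectin receptor subunit, was at 8.89 and 8.70 FPKM in the placodes and 37.5 and 37.7 in the SMGs (log2 fold change -1.98, standard error 0.06, adjusted p = 8.32e-07). Itgav was at 12.1 and 11.8 against 15.5 and 23.0. The SMG samples of Itgav lay far apart, and its difference of -0.62 in log2 units (standard error 0.17, adjusted p = 0.0147) did not pass the test without placode replicate 1 (-0.64, adjusted p = 0.122) or without placode replicate 2 (-0.61, adjusted p = 0.133). It passed at -0.89 without SMG replicate 1 (adjusted p = 0.00136) and at -0.35 without SMG replicate 2 (adjusted p = 0.0191). Itgav was the most abundant alpha subunit in the placodes, with 28.0% ± 1.19 (SD, n = 2) of the summed alpha subunits against 15.4% ± 3.96 (SD, n = 2) in the SMGs. Itga5 was the most abundant in the SMGs, with 30.2% ± 0.545 (SD, n = 2) against 20.6% ± 0.865 (SD, n = 2). The exact permutation p was 0.333 for both.

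Itga9 and Itga4 form the class that binds tenascin-C, fibronectin variants and VCAM-1. Itga9 was at 2.43 and 2.72 FPKM in the placodes and 22.6 and 21.7 in the SMGs (log2 fold change -2.69, standard error 0.08, adjusted p = 1.13e-06), the lowest of the alpha subunits on log2(FPKM + 1). Itga2 was lower than Itga9 with a pseudocount of 0.1 (-3.21 against -3.06) or 0.001 (-3.77 against -3.10). Itga4 was at 0.777 and 0.852 against 5.50 and 4.56 (log2 fold change -1.73). Of the collagen receptors, Itga2 was at 0.219 and 0.155 against 2.52 and 2.54 (log2 fold change -1.57, adjusted p = 3.56e-05). Itga1, Itga10 and Itga11 fell short of the minimum. Their FPKM ranged from 0.126 to 0.201 in the placodes and from 0.409 to 1.63 in the SMGs.

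The 10 genes under the minimum were low in both groups. When every feature above 0 was tested with no minimum, Lama3, Lamb3, Lamc3, Itga1, Itga10, Itga11 and Itgb6 were lower in the placodes, with log2 fold changes from -1.05 to -0.29 and adjusted p-values from 0.000525 to 0.0188. Itga7 (adjusted p = 0.0555), Col4a3 (0.78) and Col4a4 (0.372) did not pass. Of the 45 genes, 17 had an exon that shares bases with another annotated gene, among them Itga4 with Cerkl and Itga7 with Mettl7b on the other strand, and whether fragments were counted by strand was not given.

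Genes that work with these components moved in both directions. Of 60 partner genes that are not among the 45, 50 could be tested, of which 35 were lower and 9 were higher in the placodes and 6 did not pass, with a median log2 fold change of -0.72. Over all tested features, 40.4% were lower and 35.7% were higher. Fermt1, Col17a1, Dmd, Sgcd, Ntn4, Hmcn1 and Vwa2 reached the minimum through 1 group alone, Dmd and Ntn4 through the placodes and the others through the SMGs, so they could enter the test only by differing. In the integrin adhesion complex, which ties integrin tails to actin, 11 of 14 tested genes were lower and 2 were higher. Fermt1, the epithelial kindlin, was at 0.00987 and 0 FPKM in the placodes against 4.86 and 4.88. Tln1, which encodes talin, the activator of integrins, was at 5.46 and 5.84 against 31.1 and 32.4 (log2 fold change -2.30), and Parva, which encodes a parvin, had a log2 fold change of -1.54. The other parvin gene in the list, Parvb, was higher, at 17.9 and 16.8 against 4.00 and 4.56 (log2 fold change 1.80), as was Bcar1, an adaptor of focal adhesions (log2 fold change 1.40, 46.5 and 46.9 against 17.3 and 16.9). Ptk2, the focal adhesion kinase gene, did not pass (0.07, adjusted p = 0.271).

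In the hemidesmosome list, 2 of 4 genes were lower and 2 did not pass, against 40.4% lower and 35.7% higher over all tested features. Col17a1, the transmembrane collagen of hemidesmosomes, was at 0 and 0.0509 FPKM in the placodes against 12.49 and 11.6 (log2 fold change -3.67, adjusted p = 8.35e-07), and Cd151, a tetraspanin, was lower by a smaller amount (-0.14, adjusted p = 0.0465). Plec and Dst, cytolinkers that many cell types make, were at -0.11 (adjusted p = 0.32) and -0.08 (adjusted p = 0.684). In the same samples the salivary epithelial list summed to 58.6 and 64.4 against 625 and 597. Most of its placode sum came from Krt8 and Krt18, while Krt5, Krt14 and Krt15 were at 0 in the placodes. The part of salivary epithelial cells was not tested.

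The dystroglycan list holds partners of dystroglycan and enzymes that glycosylate it. Of its 10 tested genes, 6 were lower, 3 were higher and 1 did not pass, against 40.4% lower and 35.7% higher over all tested features. Those higher were Dtna (log2 fold change 1.92), Sgce (0.72) and Dmd (0.52), which encode a dystrobrevin, a sarcoglycan and dystrophin. The lowest were Sgcd (-1.14), Utrn (-0.90) and Pomgnt1 (-0.74), which encode another sarcoglycan, utrophin and a glycosyltransferase. Pomt1, a mannosyltransferase gene, did not pass (-0.06, adjusted p = 0.501).

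Of 11 genes for making and crosslinking collagens, collagen IV among them, 8 were lower and 2 were higher in the placodes. Over all tested features the shares were 40.4% and 35.7%. The collagen genes Col1a1, Col1a2 and Col3a1 of the mesenchyme list were also lower (log2 fold changes -1.91, -3.80 and -3.39), and their part was not tested. Serpinh1, the collagen chaperone, was at 112 and 105 FPKM against 385 and 400 (log2 fold change -1.85, adjusted p = 1.1e-06). The prolyl 3-hydroxylase genes P3h2 and P3h1 had log2 fold changes of -2.41 and -1.99. The prolyl 4-hydroxylase genes P4ha2 and P4ha1 went the other way, at 26.3 and 22.9 against 9.00 and 7.66 (1.46) and at 55.8 and 52.3 against 25.1 and 20.1 (1.23). Plod2, a lysyl hydroxylase gene, did not pass (-0.17, adjusted p = 0.116).

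Of 11 other basement membrane genes tested, 8 were lower and 2 were higher, against 40.4% and 35.7% of all tested features. Ntn4, a netrin that binds laminin and hinders laminin network assembly, was at 14.7 and 13.9 FPKM in the placodes and 0.940 and 0.875 in the SMGs (log2 fold change 3.00, adjusted p = 1.1e-06). Smoc1 was also higher (log2 fold change 1.90), while its relative Smoc2 was at 1.08 and 1.22 against 44.8 and 37.2 (log2 fold change -4.28). Both encode calcium-binding matrix proteins. Fbln1 had a log2 fold change of -2.40, and Fn1, which encodes fibronectin, was at 46.2 and 48.3 against 182 and 185 (log2 fold change -1.94). Col7a1, the anchoring fibril collagen, did not pass (-0.20, adjusted p = 0.152). The mesenchyme list, at 212 and 208 against 2107 and 2053, was lower in all 8 of its genes in the same samples, and its part was not tested. None of the 8 other integrin subunits, mostly those of leukocytes and platelets, reached the minimum, and Itgad, Itgam and Itgb2 were at 0 in both placode samples.

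**Figure D4:**
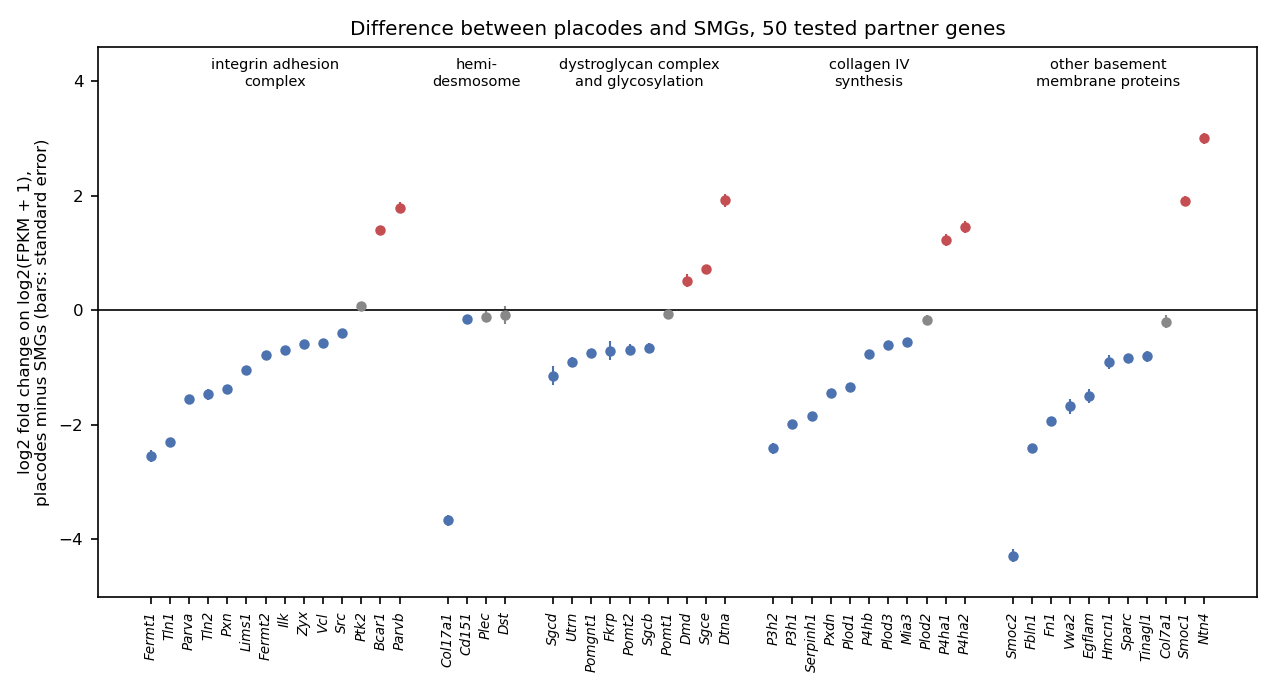
Log2 fold change on log2(FPKM + 1), placodes minus SMGs, on the vertical axis for the 50 tested partner genes in 5 lists, with bars for the standard error; red is higher and blue is lower in the placodes at a limma adjusted p below 0.05, and grey did not pass. Blue genes outnumber red ones in each list, and values run from -4.28 for Smoc2 to 3.00 for Ntn4.

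The chains supplied as protein by Matrigel were also read as a group. Of their 7 genes (Lama1, Lamb1, Lamc1, Col4a1, Col4a2, Nid1 and Hspg2), 6 were lower in the placodes and Lama1 did not pass. The median log2 fold change was -2.10, and 40.4% of all tested features were lower. All 7 were already counted among the basement membrane and integrin genes above, so they add no further result. Their summed FPKM was 82.1 and 82.5 in the placodes and 560 and 569 in the SMGs. All placodes were grown with Matrigel, so RNA levels with and without it cannot be compared here.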

How the data were processed

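RNA of day 10 placodes and of E12.5 SMGs (2 samples each) was sequenced after NEBNext Ultra library preparation. The authors aligned reads with HISAT2 and deposited 1 FPKM value per feature and sample. The submitters' processing notes list GRCm38 and GRCh38; the HISAT2 version, the annotation, the program behind FPKM and the strandedness were not given in the sources used here. Coordinates and exon overlaps came from GENCODE M21 (GRCm38).

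Features with a mean FPKM of at least 1 were tested on log2(FPKM + 1) with limma 3.58.1 in R 4.3.3 (lmFit, eBayes with trend, group as the only term, two-sided), with Benjamini-Hochberg adjustment. A fold change on this scale understates the change of low genes. Exact permutation tests compared shares. Same-numbered samples did not deviate together (r = -0.03 over 13193 features), so no pairing was used. The procedure was tested on simulated data. Figures were drawn with matplotlib 3.10.9.

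The members, partner lists, marker lists and tests were chosen with earlier results of these data known. Named were all 45 members, of each partner list up to 3 highest and 3 lowest genes past the threshold with Fn1, and of each marker list genes listed at 0 or among the 3 of highest FPKM. Ptk2, Plec, Dst, Pomt1, Plod2, Col7a1, Hmcn1 and Vwa2 were named after their values were seen. The same holds for the endoderm markers Gata4, Ttr, Amn, Cubn and Afp. Some genes of these pathways are not reported here. Alternatives changed the pseudocount, scaling, minimum, block, variance model or 1 replicate.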

Additional observations from a re-analysis of the deposited data

How the results depend on the processing

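Each of the 35 tested members was refitted under 16 alternatives, and 32 kept their direction and their side of the threshold in every one that could test them. The exceptions were Agrn, Itgav and Fras1. Agrn had a log2 fold change of 0.18 (limma adjusted p = 0.0611) without placode replicate 2, which left 1 member higher in place of 2. Itgav had -0.64 (adjusted p = 0.122) without placode replicate 1 and -0.61 (adjusted p = 0.133) without placode replicate 2, and passed at -0.89 without SMG replicate 1 and -0.35 without SMG replicate 2. Fras1, which did not pass the test, changed sign to 0.0137 with an equal sum per sample (TPM), 0.0091 with median-ratio size factors and 0.0001 without placode replicate 1 (from -0.0715 to 0.0001 over the 4 replicates left out in turn). With a minimum mean FPKM of 5, 24 members were tested and 16 were at least 2-fold lower, since fewer genes were tested. With a pseudocount of 0.001, the log2 fold change of 6 low members grew by over 1.5 times: Itga2 (-1.57 to -3.77), Itgb4 (-2.10 to -4.18), Lama2 (-2.64 to -4.99), Col4a6, Frem2 and Itga4. A lone sample left in a group was assumed to vary like the others.

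With the replicate number as a block, 10043 features passed in place of 10049, and the 35 members kept their calls. The deviations of same-numbered samples from their group means did not correlate (r = -0.03). This value cannot show whether such samples shared a batch or a date. Counting error could not be given because depth is unknown.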
